A study of Mus musculus with 4 samples.

Results

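The 8 genes described here encode inhibitory receptors of T cells other than CTLA-4: Pdcd1 (PD-1), Havcr2 (TIM-3), Lag3, Tigit, Cd160, Cd244a (2B4), Cd101 and Cd200r1. They were chosen by symbol, with earlier results of these data known, and are 8 of the 32285 genes listed in both expression matrices. In the GRCm38.p6 annotation, Pdcd1 lies on chromosome 1 from 94038305 to 94052553 and Cd244a on the same chromosome from 171558718 to 171585316. Cd160 (96798763 to 96829351) and Cd101 (100992189 to 101029553) share chromosome 3, and Tigit (43626137 to 43665125) and Cd200r1 (44765736 to 44794977) share chromosome 16. Lag3 lies on chromosome 6 (124904359 to 124912434) and Havcr2 on chromosome 11 (46454931 to 46481255).

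The cells were tumor-infiltrating lymphocytes of B16 melanoma, a transplantable mouse tumor line, sorted together as CD4+ and CD8+ cells. VISTA-KO mice carried Vsir fl/fl with CD4-Cre, which acts in developing thymocytes and so reaches CD4, CD8 and regulatory T cells, whereas WT littermates carried Vsir fl/fl without Cre. All mice had received a peptide vaccine on day 3 and anti-CTLA-4 antibody (100 µg) on days 4 and 8, and tumors were taken on day 18, counted after treatment in the study's account. Several mice were pooled into 1 library per genotype, so the comparison asks whether receptor transcripts differed between these 2 libraries. With 1 library per genotype no difference was tested, and the spread between mice is unknown. All intervals are 95% and cover counting error only.

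Inhibitory receptors dampen signaling through the T cell receptor or through costimulation, and many are induced by antigen. A T cell that meets antigen for a long time, as in a tumor, tends to carry several of them at once, a state known as exhaustion. PD-1 recruits the phosphatase SHP-2 after binding PD-L1 or PD-L2, TIM-3 binds galectin-9 and CEACAM1, LAG-3 binds MHC class II, and TIGIT competes with the activating receptor CD226 for CD155. CD160 binds HVEM, 2B4 binds CD48, and CD200R1 binds CD200. CD101 marks late stages of exhaustion.

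The WT library held 10224 cells that passed the filters and the VISTA-KO library 9946. CD8 cells (a UMI of Cd8a or Cd8b1 and none of Cd4) numbered 5549 in WT and 4350 in VISTA-KO. Conventional CD4 cells (a UMI of Cd4 and none of Foxp3) numbered 1768 and 3048, and regulatory cells (UMIs of Cd4 and Foxp3) 1528 and 1270. The median UMIs per cell were 4848 and 5225 in CD8 cells, 4106 and 4224 in conventional CD4 cells, and 8839 and 5939 in regulatory cells, so shares of positive cells were compared after every cell was thinned to 2000 UMIs. Vsir was at 112 CPM (UMIs of the gene per 1000000 UMIs) in the CD8 cells of WT and 111 CPM in those of VISTA-KO, and at 109 to 117 CPM in the CD4 kinds. The sum over the gene does not show whether the reads lie in the deleted part, so Vsir did not separate the libraries, and VISTA-KO below is the label of a library. Among the barcodes, 145 occurred in both libraries.

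In CD8 cells, Havcr2 was the only receptor whose level differed by the fold set for naming a gene, which was a VISTA-KO to WT log2 ratio beyond 0.32 either way after 5 CPM were added to each level. Its level was 54.9 CPM (52.6 to 57.3) for WT against 74.1 CPM (71.0 to 77.4) for VISTA-KO, and the ratio was 1.35 (1.27 to 1.44). Of 7 members with at least 20 CPM, 1 was past the fold upward, against a background of 2.58% of 6083 genes, and 0 were past it downward, against 1.64%. The remaining one of the 8, Cd244a, was at 18.6 and 19.9 CPM and did not reach 20 CPM in either library. The log2 ratio had a median of 0.02 over all 8 members and of -0.02 over all genes. The typical gene moved by 0.07 in either direction. Without the largest clonotype of each library, Havcr2 was at 62.0 and 67.6 CPM and was not past the fold, whereas Tigit and Cd160 were, downward. The 4 melanoma markers summed to 10.2 CPM in the WT and 194 CPM in the VISTA-KO CD8 cells, and Foxp3 was at 37.1 and 19.7 CPM. In the CD8 cells left when those with another lineage's marker were taken out, Havcr2 was at 54.98 and 75.9 CPM (1.38, 1.29 to 1.48).

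The other CD8 levels lay close together in both genotypes. The Pdcd1 level was 485 CPM for WT against 422 CPM for VISTA-KO (ratio 0.871, 0.851 to 0.891). Tigit was at 315 and 270 CPM (0.858, 0.833 to 0.883), and Cd160 at 137 and 114 CPM (0.831, 0.795 to 0.869). These 3 were lower in VISTA-KO beyond counting error, but by less than that fold. The direction for Pdcd1 differed by clonotype size: it was at 189 and 225 CPM in cells whose clonotype was seen once (1.19, 1.097 to 1.29), at 569 and 426 CPM in clonotypes of 2 to 19 cells (0.749, 0.716 to 0.784), and at 593 and 697 CPM in those of 20 or more. Lag3 was at 208 and 205 CPM, Cd101 at 28.5 and 29.9 CPM and Cd200r1 at 22.7 and 24.1 CPM, each with an interval of the ratio that included 1, as did that of Cd244a.

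For the receptors whose levels differed beyond counting error, the share of CD8 cells with a UMI at equal depth had the same order. Pdcd1 was detected in 40.6% of 5259 WT cells and 35.5% of 4164 VISTA-KO cells, Tigit in 36.5% and 32.6%, and Cd160 in 18.96% and 16.8%. Havcr2 was detected in 6.22% (5.58 to 6.90) and 9.97% (9.07 to 10.9). Lag3 was detected in 21.6% and 22.8%, and Cd244a, Cd101 and Cd200r1 in 3.00% to 5.98% of cells. Without thinning, Pdcd1 was detected in 56.4% and 52.0% and Havcr2 in 17.8% and 22.6%. Plasmacytoid dendritic-like cells, which should lack PD-1 and CD160, gave the background at the same depth. Their median depths were 8306 and 8690 UMIs before thinning. Pdcd1 was found in 0.794% of 126 WT and 2.11% of 95 VISTA-KO cells. Cd160 was found in 0 of each, which allows shares of up to 2.89% and 3.81%. In the same cells Havcr2 was found in 0.794% and 3.16% (7.71 and 10.5 CPM) and Tigit in 2.38% and 4.21%. They are no background for Lag3, which these cells themselves carry, at 354 and 467 CPM and in 50% and 52.6% of cells.

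**Figure D1:**
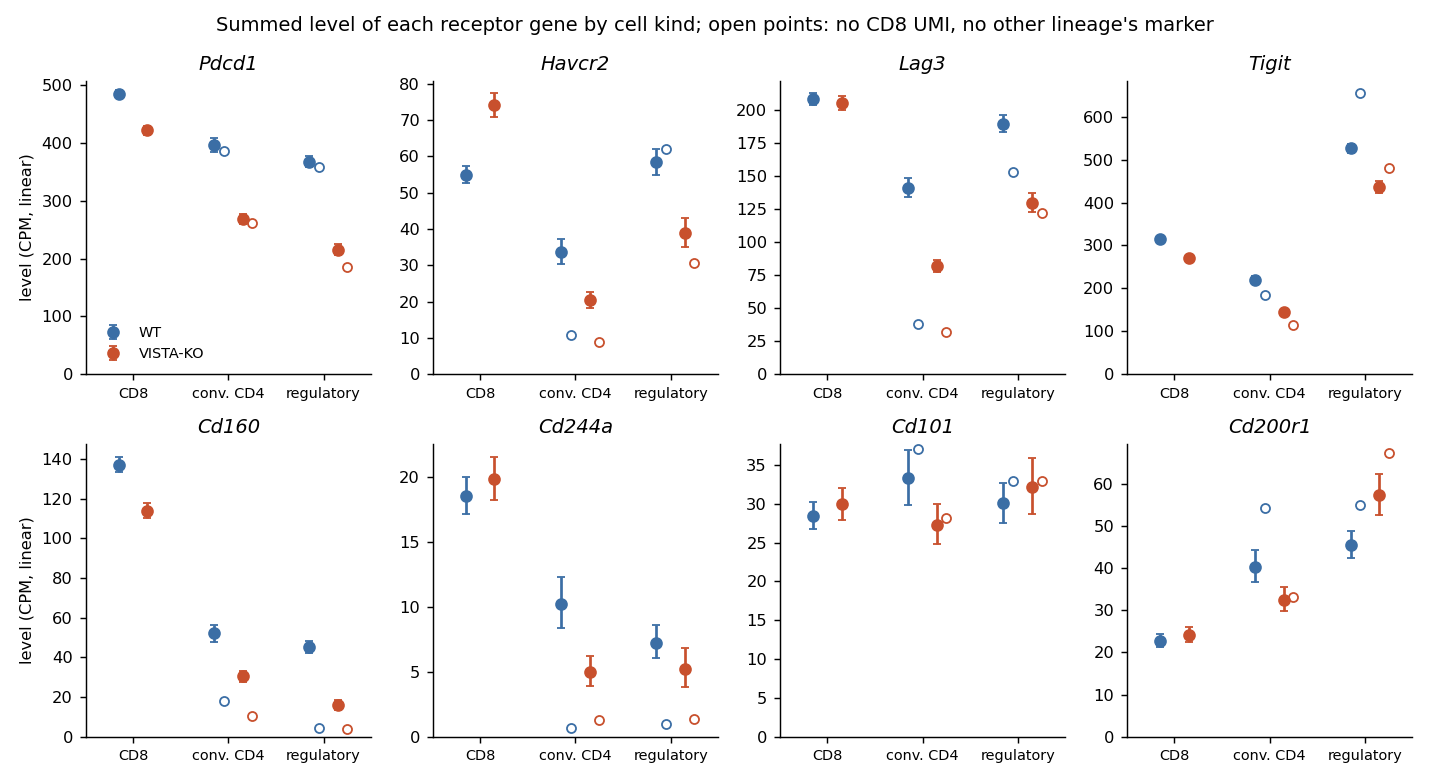
Level in CPM (linear axes) of each of the 8 genes in CD8, conventional CD4 and regulatory cells of the WT and VISTA-KO libraries, with exact 95% Poisson intervals, and open points for CD4 cells without CD8 UMIs or other lineages' markers. In CD8 cells Havcr2 is higher in VISTA-KO (74.1 against 54.9 CPM), whereas in both CD4 kinds Pdcd1, Havcr2, Lag3, Tigit and Cd160 are lower in VISTA-KO.

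The Havcr2 difference in CD8 cells depended on which clones were counted. Havcr2 was past the fold upward under 11 of 13 alternative settings, among them equal weight for each clonotype. The largest WT clonotype, with 1034 cells (24.9% of the WT CD8 cells with a clonotype), had Havcr2 at 8.61 CPM. The largest VISTA-KO clonotype, with 291 cells (8.41%), had it at 149 CPM. Without these 2 clonotypes the levels were 62.0 and 67.6 CPM, a ratio of 1.09 (1.02 to 1.16). Among cells whose clonotype was seen once, the levels were 14.9 and 26.6 CPM (1.78, 1.37 to 2.35), and among clonotypes of 2 to 19 cells 70.0 and 69.3 CPM (0.990, 0.877 to 1.12). The levels thus differed beyond counting error in cells seen once and in the largest clones, and not in the clonotypes between.

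Havcr2 also differed by effector state. Among thinned CD8 cells with a UMI of Gzmb, which encodes the cytotoxic protease granzyme B, Havcr2 was at 72.9 CPM for WT against 111 CPM for VISTA-KO (1.53, 1.42 to 1.64). Among cells without one it was at 39.2 and 28.4 CPM (0.725, 0.638 to 0.823). In cells without Gzmb, Pdcd1 was at 442 and 302 CPM (0.682), Tigit at 289 and 180 CPM (0.625) and Lag3 at 185 and 143 CPM (0.771). Cd160 (0.848) and Cd244a (0.773) were also lower there in VISTA-KO beyond counting error, and for Cd101 and Cd200r1 the interval of the ratio included 1. In cells with Gzmb, Pdcd1 (532 and 518 CPM) and Tigit (345 and 342 CPM) were within counting error of each other, Lag3 was at 235 and 256 CPM (1.09, 1.04 to 1.14) and Cd160 at 131 and 108 CPM (0.824). Cd244a was higher in VISTA-KO in these cells, at 21.8 and 25.9 CPM (1.19, 1.03 to 1.37). For Cd101 and Cd200r1 the interval again included 1. A Gzmb UMI was found in 55.1% of the thinned cells of the largest WT clonotype and in 92.7% of those of the largest VISTA-KO clonotype. The 2 states thus also differed in these clones. Neither the difference between the 2 states nor the part of the clones in it was tested.

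In conventional CD4 cells all 8 receptors were lower in the VISTA-KO library. Among the 6336 genes with at least 20 CPM in 1 library, 39.0% had a log2 ratio above 0. The level of Pdcd1 was 397 CPM for WT against 268 CPM for VISTA-KO (0.676, 0.648 to 0.705), Tigit at 220 and 144 CPM (0.655, 0.618 to 0.694), and Lag3 at 141 and 81.7 CPM (0.581, 0.539 to 0.626). Of 7 members with at least 20 CPM, 5 were past the fold downward, against a background of 5.63% of 6336 genes, and 0 upward, against 3.68%. Those 5 were Pdcd1, Tigit, Lag3, Havcr2 (33.6 and 20.4 CPM) and Cd160 (52.0 and 30.5 CPM). Cd101 (33.3 and 27.3 CPM) and Cd200r1 (40.3 and 32.5 CPM) stayed within the fold, and Cd244a was at 10.2 and 4.99 CPM, under 20 CPM. The median log2 ratio was -0.60 over the 8 members and -0.04 over all genes.

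Markers of other cells differed along with these levels, and their part in the result was not tested. Levels in the cells without them are described below. A CD8 UMI was present in 578 of the 1768 WT cells and in 638 of the 3048 VISTA-KO cells of this gate. The summed level of the 2 CD8 markers was 897 and 457 CPM, that of 3 plasmacytoid dendritic markers 472 and 206 CPM, and that of 4 melanoma markers 204 and 15.7 CPM, with every marker of the 3 lists above 0. In 1102 WT and 2270 VISTA-KO cells there was no CD8 UMI and no UMI of Siglech or of a macrophage, B cell or melanoma marker. Siglech is 1 of the 3 plasmacytoid dendritic markers, which still summed to 1.87 and 1.13 CPM in these cells. There Pdcd1 was at 386 and 261 CPM (0.678, 0.637 to 0.721) and Tigit at 186 and 114 CPM (0.613, 0.560 to 0.673). Cd200r1 was at 54.2 and 33.2 CPM (0.614, 0.517 to 0.730) and Cd101 at 37.1 and 28.2 CPM (0.761, 0.624 to 0.930).

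Lag3 was far lower in those cells than over the whole gate, at 38.1 CPM for WT against 31.8 CPM for VISTA-KO (0.836, 0.690 to 1.02). Havcr2 was at 10.7 and 8.80 CPM (0.819, 0.566 to 1.199), and Cd160 at 17.98 and 10.4 CPM. In cells free of these markers the ratios of Pdcd1 and Tigit were close to those over the whole gate. For Lag3 and Havcr2 the interval of the ratio then included 1. Among the marker-free cells with at least 2000 UMIs, the median depth was 3576 UMIs in WT and 4103.5 in VISTA-KO. At 2000 UMIs Pdcd1 was detected in 33.8% of 987 WT and 25.8% of 2134 VISTA-KO cells free of the markers, Tigit in 23.4% and 15.7%, and Lag3 in 3.95% and 3.98%. Over the whole gate the thinned share of Havcr2 was 2.14% in WT and 2.53% in VISTA-KO, but over 20 other random thinnings it ran from 2.33% to 3.61% and from 2.01% to 2.56%, and without thinning it was 8.99% and 6.10%. The first WT value thus lay below all the others, and no order was read from the thinned share.

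In regulatory cells 6 of the 8 receptors were lower in the VISTA-KO library, among them Cd244a, which was under 20 CPM. Among the 6281 genes with at least 20 CPM in 1 library, 48.2% had a log2 ratio above 0. Tigit, which marks strongly suppressive regulatory cells, was at 526 CPM for WT against 436 CPM for VISTA-KO (0.828, 0.799 to 0.859). Pdcd1 was at 368 and 215 CPM (0.585, 0.556 to 0.614), and Lag3 at 189 and 129 CPM (0.684, 0.640 to 0.730). Havcr2 was at 58.5 and 38.9 CPM and Cd160 at 45.02 and 16.01 CPM. These last 4 were past the fold downward among 7 members with at least 20 CPM, against 5.64% of 6281 genes, and 0 were past it upward, against 6.45%.

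Cd200r1 went the other way, at 45.5 CPM for WT against 57.4 CPM for VISTA-KO (1.26, 1.13 to 1.41), with a log2 ratio of 0.30 after 5 CPM was added, short of the fold. Cd101 was at 30.1 and 32.1 CPM, and Cd244a at 7.27 and 5.20 CPM. The median log2 ratio was -0.40 over the 8 members and -0.01 over all genes.

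The regulatory cells of the 2 libraries also differed in depth and division. Dividing cells (2 or more UMIs over 5 cell cycle genes, unthinned) made up 31.4% of the WT and 15.98% of the VISTA-KO regulatory cells, and a CD8 UMI was present in 794 of 1528 and 375 of 1270. The CD8 markers summed to 857 and 389 CPM and the melanoma markers to 5.57 and 189 CPM. In the 617 WT and 732 VISTA-KO cells without CD8 UMIs and other lineages' markers, Pdcd1 was at 359 and 186 CPM (0.518, 0.475 to 0.566), Havcr2 at 62.0 and 30.5 CPM (0.493, 0.396 to 0.611), and Tigit at 656 and 480 CPM (0.731, 0.690 to 0.775). Lag3 was at 153 and 121 CPM (0.795, 0.706 to 0.895) and Cd200r1 at 54.9 and 67.2 CPM. Cd160 was at 4.68 and 3.76 CPM there, with an interval of the ratio from 0.387 to 1.65, against 45.02 and 16.01 CPM over the whole gate. In the thinned cells of that kind the median depth was 5281 and 5103 UMIs, the dividing share 16.8% and 11.01%, and the mean number of receptors detected 1.496 and 1.07.

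**Figure D2:**
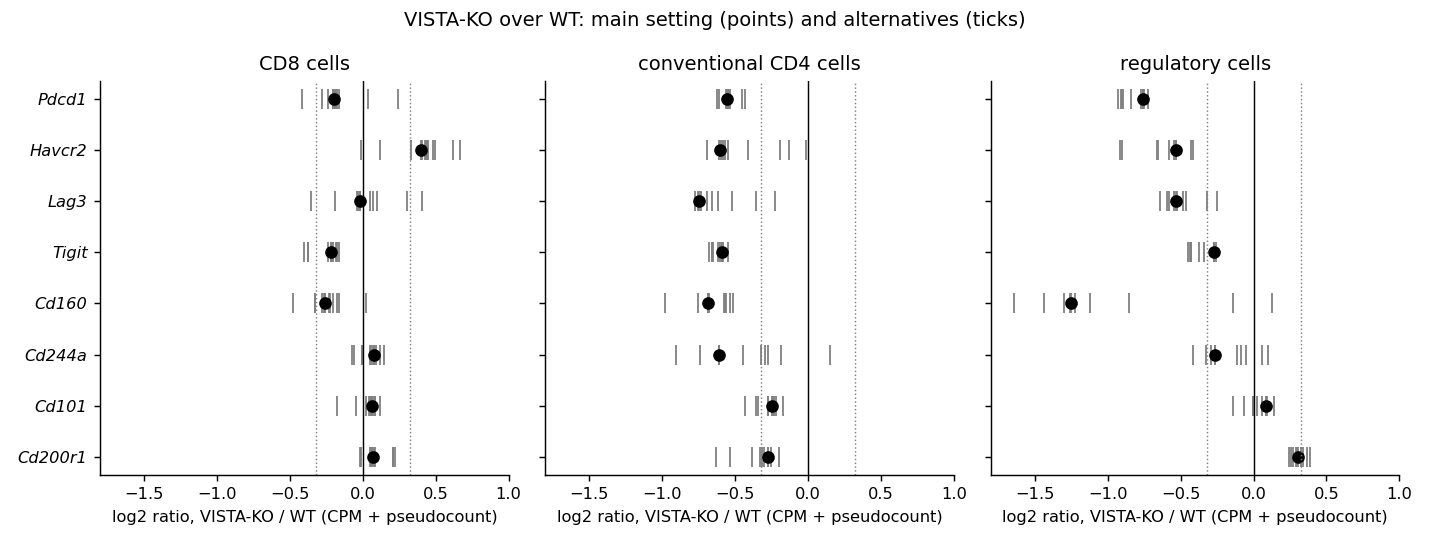
Log2 ratio of VISTA-KO over WT (CPM plus a pseudocount) for the 8 genes in each cell kind, with points for the values as reported, ticks for the values under other settings and dotted lines at the log2 fold of 0.32. Pdcd1, Havcr2, Lag3 and Tigit stay below 0 under every setting in conventional CD4 and regulatory cells. In CD8 cells Havcr2 spans -0.013 to 0.67.

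The number of receptors per CD8 cell was close between the libraries over all cells, but not in every range of clonotype size. At 2000 UMIs a CD8 cell had a UMI of 1.36 of the 8 genes on average in WT and of 1.30 in VISTA-KO, with 1.37 to 1.38 and 1.29 to 1.33 over 20 other random thinnings, and of at most 7 in either. With the most abundant clonotype of each library left out, these means were 1.45 and 1.26, and in clonotypes of 1 cell 0.774 and 0.843. Of Pdcd1, Lag3, Tigit and Havcr2, all 4 were found in 1.22% (0.938 to 1.55) and 2.14% (1.72 to 2.62) of the CD8 cells. None of the 4 was found in 36.9% (35.6 to 38.2) and 42.5% (41.0 to 44.0). For these 4 genes VISTA-KO thus had more cells at both ends. These shares were not computed without the largest clonotypes. Havcr2 was found in 1.62% of 987 thinned cells of the largest WT clonotype and in 23.6% of 288 of the largest VISTA-KO clonotype. Of all 8 genes, none was found in 28.5% of WT and 33.2% of VISTA-KO CD8 cells. At least 4 of the 8 were found in 5.78% (5.165 to 6.45) and 6.46% (5.73 to 7.25), with overlapping intervals. Conventional CD4 cells had a mean of 0.966 and 0.703 receptors, and regulatory cells 1.61 and 1.11. Over the 20 other thinnings the conventional CD4 means ran from 0.919 to 0.957 and from 0.659 to 0.700, all below the values given. The regulatory means ran from 1.56 to 1.61 and from 1.11 to 1.17.

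The receptors were found together more often than the product of their shares in CD8 cells. The observed share with both genes of a pair was above that product in 28 of 28 pairs in each library, from 1.04 to 3.47 times (median 1.41) in WT and from 1.01 to 2.96 times (median 1.42) in VISTA-KO. Cd244a with Cd200r1 was the highest in both, from 17 WT and 14 VISTA-KO cells with both. Among cells with a Havcr2 UMI, Lag3 was found in 48.0% (42.5 to 53.6) in WT and in 45.8% (40.9 to 50.7) in VISTA-KO, against 19.8% and 20.2% of cells without one. Cd160 stood at the low end with Pdcd1 (1.09 and 1.05), Lag3 (1.15 and 1.02) and Tigit (1.11 and 1.01). The CD4 kinds were less uniform. In conventional CD4 cells 21 of 28 WT and 22 of 28 VISTA-KO pairs were above the product, and in regulatory cells 24 and 19.

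Detection also followed the amount of Pdcd1. From 0 to 1, 2 and 3 or more Pdcd1 UMIs, Lag3 was found in 14.2%, 28.3%, 34.8% and 37.6% of WT cells, and in 14.8%, 30.5%, 39.1% and 46.4% of VISTA-KO cells. Between the lowest and the highest of these classes Tigit went from 28.9% to 55.8% in WT and from 22.8% to 57.3% in VISTA-KO. Cd160 went from 17.8% to 22.2% and from 16.3% to 17.2%. Tox, a transcription factor of exhausted cells, went from 15.9% to 37.6% and from 14.3% to 40.1%, and Tcf7, a factor of naive, memory and stem-like cells, from 29.7% to 9.49% and from 28.1% to 5.36%.

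Within single clones, co-detection lay closer to the product of the shares. Over WT cells of clonotypes with 20 or more cells, the median of the 28 ratios was 1.46 when the product was taken over all those cells together, and 1.09 when it was taken within each clonotype and summed. In VISTA-KO the medians were 1.11 and 1.03. Over the cells together, the counting interval lay above 1 in 18 of 28 WT pairs and 0 of 28 VISTA-KO pairs. Within clonotypes it did so in 0 of 28 pairs in either library. The ratio itself was above 1 there in 23 of 28 WT and 19 of 28 VISTA-KO pairs. These clonotypes held 2067 WT and 740 VISTA-KO thinned cells, so many pairs rested on few cells with both genes. Within clonotypes the highest WT ratios were those of Cd244a with Cd101 (1.83, 0.792 to 3.61) and Cd244a with Cd200r1 (1.74, 0.794 to 3.30). These rested on 8 and 9 cells.

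**Figure D3:**
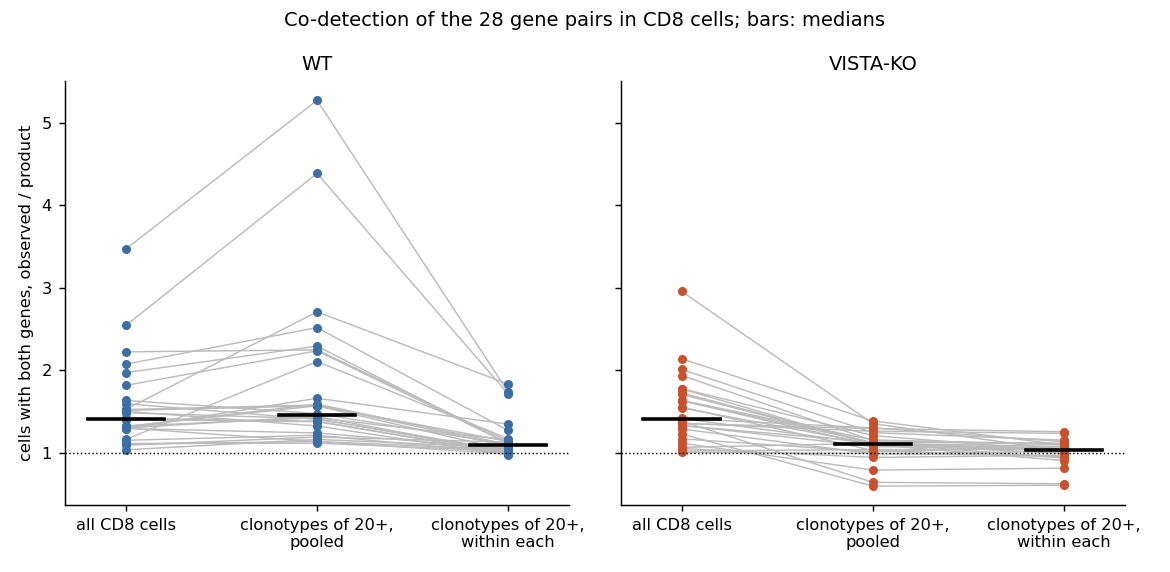
Observed cells with both genes over the product of the shares for the 28 gene pairs in WT and VISTA-KO CD8 cells thinned to 2000 UMIs, over all cells, over clonotypes of 20 or more cells pooled, and within each such clonotype; lines join a pair and bars are medians. In WT the medians are 1.41, 1.46 and 1.09, and in VISTA-KO 1.42, 1.11 and 1.03.

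The mean number of receptors per CD8 cell was higher in expanded clones. In WT it was 0.774 in cells whose clonotype was seen once, 1.34 in clonotypes of 2 to 4 cells, 1.66 in those of 5 to 19, 1.72 in those of 20 to 99 and 1.33 in the 2 of 100 or more. In VISTA-KO the same bins had 0.843, 1.22, 1.44, 2.03 and 2.27, the last again from 2 clonotypes. The dip of the WT series at its end came with the largest WT clonotype, at 0.955 receptors per cell. Without the largest clonotype of each library, clonotypes of 20 or more cells had 1.95 receptors per cell in WT and 2.31 in VISTA-KO. Cells with 3 or more of the receptors went from 6.50% to 27.2% in WT between the first and the fourth bin, and from 8.13% to 37.4% in VISTA-KO. The median depth before thinning was 4791 UMIs in WT cells seen once and 4744 in WT clonotypes of 20 or more, and 5008 and 6691 in VISTA-KO.

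Single genes followed clone size to different degrees. Pdcd1 was at 189, 444, 620, 654 and 544 CPM over the 5 bins in WT and at 225, 403, 443, 719 and 682 CPM in VISTA-KO. Havcr2 was at 14.9, 50.1, 78.2, 92.6 and 37.8 CPM in WT and at 26.6, 56.9, 78.4, 95.4 and 189 CPM in VISTA-KO. Cd160 did not follow: it was at 136, 201, 152, 155 and 116 CPM in WT and at 138, 126, 112, 102 and 107 CPM in VISTA-KO.

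**Figure D4:**
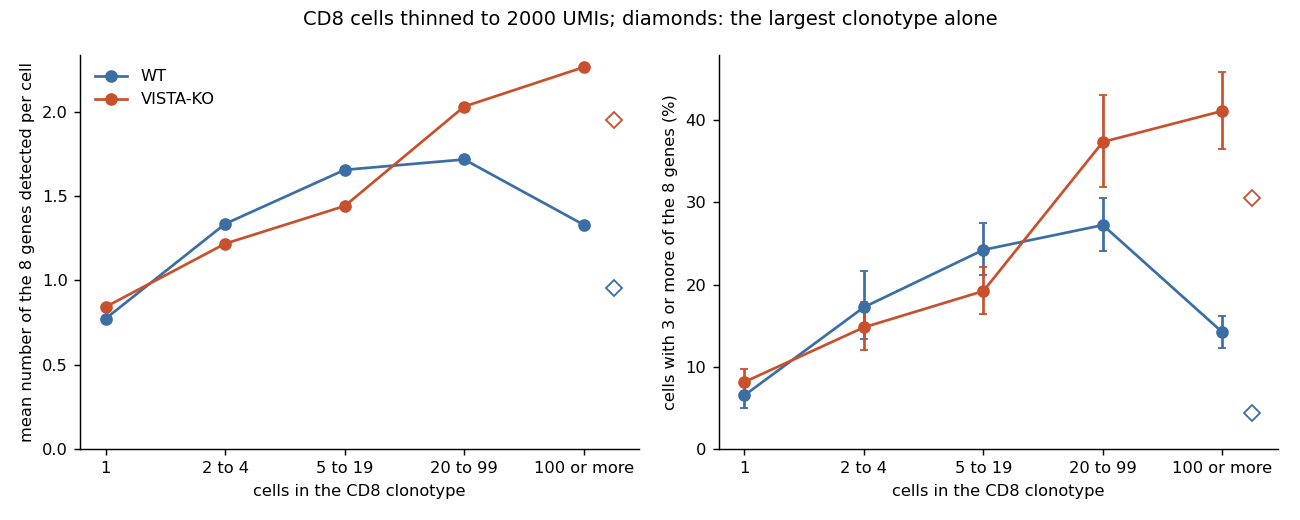
Mean number of the 8 genes detected per CD8 cell thinned to 2000 UMIs (left) and percent of cells with 3 or more of them (right, exact 95% binomial intervals), by number of cells in the clonotype, with diamonds for the largest clonotype of each library. The mean goes from 0.774 to 1.72 in WT between clonotypes of 1 cell and of 20 to 99 cells and falls to 1.33 in those of 100 or more. In VISTA-KO it goes from 0.843 in clonotypes of 1 cell to 2.27 in those of 100 or more.

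Single clones showed how far the receptors can part. In all, 35 CD8 clonotypes had 20 or more cells, 23 in WT and 12 in VISTA-KO. Ordered by Pdcd1, 9 clonotypes (342 cells; 7 WT and 2 VISTA-KO) lay between 9.98 and 115 CPM and the other 26 (2567 cells) between 381 and 1342 CPM, with none in the gap. The groups were drawn on Pdcd1 after its values were seen, so the levels of the other genes on each side are a description. Lag3 was at 5.82 to 62.8 CPM below the gap and at 42.2 to 727 CPM above it, and Havcr2 at 0 to 32.5 and at 0 to 255 CPM. Cd244a had no UMI in 7 of the 9 clonotypes below the gap and in 3 of the 26 above it, and Cd200r1 in 8 of the 9 and in 3 of the 26. Such counts depend on depth: total UMIs below and above the gap were 1079921 and 11812184 in WT, and 244910 and 5808675 in VISTA-KO. Pooled below and above, Cd244a was at 0.926 (0.0234 to 5.16) and 22.5 CPM in WT and at 4.08 (0.103 to 22.7) and 33.1 CPM in VISTA-KO. Cd200r1 was at 0 (up to 3.42) and 23.1 CPM, and at 4.08 (0.103 to 22.7) and 33.6 CPM.

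Cd160, Cd101 and Tigit were present in the clones low in Pdcd1. Cd160 was at 29.95 to 256 CPM (median 166) in the 9 clonotypes and at 13.1 to 222 CPM (median 122) in the other 26. Cd101 had medians of 26.9 and 31.5 CPM, and Tigit ran from 98.98 to 264 CPM (median 177) below the gap and from 161 to 727 CPM (median 456) above it. Tox was at 0 to 43.9 CPM below the gap and at 73.4 to 479 CPM above it. The share of all genes whose ranges part in this way was not computed. Klrg1, a receptor of effector and memory CD8 cells, was at 121 to 280 CPM and at 0 to 215 CPM. Gzmb was at 1001 to 2142 CPM in the 9 clonotypes, inside the range of 166 to 3765 CPM in the others.

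The T cell receptors of the clones low in Pdcd1 are shown because several resemble each other. Of the 9, 4 had a beta junction of 45 bases with TRBJ2-4 and the same bases 16 to 24, which are capitalised below. Of the 26 above the gap, 0 had this combination, but only 2 of them used TRBJ2-4, neither with 45 bases. The 26 thus do not bear on the run itself. Over all sizes, 9 of 1148 WT and 10 of 1659 VISTA-KO CD8 clonotypes had the combination. The capitalised bases alone were not particular to the low clones. At other positions and with other J segments they also occurred in WT clonotype 20 and VISTA-KO clonotypes 4 and 5, with Pdcd1 at 832, 945 and 911 CPM. Whether the capitalised bases come from a germline D segment was not examined. WT clonotypes 4 (76 cells) and 8 (45 cells) and VISTA-KO clonotype 9 (24 cells) paired TRBV16 with TRAV12D-2, and WT clonotype 7 (46 cells) used TRBV10 and TRAV7N-6. The beta junctions of WT clonotype 4 and VISTA-KO clonotype 9 differed at 3 bases. Pdcd1 was at 38.5, 11.6, 11.9 and 52.0 CPM in WT clonotypes 4, 7 and 8 and VISTA-KO clonotype 9.
WT clonotype 4: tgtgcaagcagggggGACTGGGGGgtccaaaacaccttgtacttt
WT clonotype 7: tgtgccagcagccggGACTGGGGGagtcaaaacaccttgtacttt
WT clonotype 8: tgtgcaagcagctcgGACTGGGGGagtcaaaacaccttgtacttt
VISTA-KO clonotype 9: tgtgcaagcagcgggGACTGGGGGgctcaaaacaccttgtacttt

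The resemblance was noticed in these clonotypes, so it was also described in smaller ones. Among CD8 clonotypes under 20 cells with TRBJ2-4 and a 45-base junction, those with the run had Pdcd1 at 45.4 CPM (12.4 to 116; 4 UMIs in 21 cells) in WT and at 51.4 CPM (24.6 to 94.5; 10 UMIs in 45 cells) in VISTA-KO. Those without it had 146 CPM (108 to 192; 50 UMIs in 77 cells) and 305 CPM (252 to 365; 118 UMIs in 68 cells). The cells with the run came from 6 WT and 9 VISTA-KO clonotypes, and those without it from 29 and 34. In VISTA-KO, 110 of the 118 UMIs without the run came from 11 clonotypes of 2 to 19 cells. Cells of 1 clonotype are not independent, and the intervals do not cover the spread between clonotypes. Not every class parted this way: in the VISTA-KO clonotypes of 1 cell Pdcd1 was at 112 CPM with the run (3 UMIs in 4 cells) and 68.3 CPM without it (8 UMIs in 23 cells), with overlapping intervals, and WT clonotype 19 (24 cells), which has TRBJ2-4 and that length but not the run, had 9.98 CPM, the lowest of the 35. Cd160 was at 181 CPM with the run and 225 CPM without it in WT and at 149 and 170 CPM in VISTA-KO. In WT, Lag3 had 0 UMIs with the run (interval up to 41.8 CPM) and was at 61.3 CPM without it, and in VISTA-KO it was at 92.5 and 230 CPM.

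A second pair among the 9 had the same beta junction amino acids from different bases, with alpha V genes called as TRAV12-3 and TRAV12D-3. WT clonotypes 11 and 13 shared the bases of the alpha junction, and their beta junctions (TRBJ1-1) differed at 2 bases, positions 15 and 18, capitalised below, with the same amino acids. Pdcd1 was at 115 and 17.9 CPM in them, and Havcr2 at 0 and 26.9 CPM. In 4 smaller WT clonotypes with this alpha junction and these beta amino acids (7 cells), Pdcd1 was at 343 CPM (157 to 651; 9 UMIs).
WT clonotype 11: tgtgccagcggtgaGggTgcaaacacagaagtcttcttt
WT clonotype 13: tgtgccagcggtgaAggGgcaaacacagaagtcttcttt

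The 2 largest clones of each library lay above the gap and are shown for comparison by their beta junctions. WT clonotype 1 (TRBV12-2, TRAV10N) combined Pdcd1 at 383 CPM with Lag3 at 42.2 CPM and Tigit at 161 CPM, the lowest Lag3 and Tigit levels of the 26. WT clonotype 2 (318 cells) had Pdcd1 at 921 CPM and Lag3 at 466 CPM. VISTA-KO clonotype 1 had Pdcd1 at 554 CPM and Lag3 at 215 CPM, and VISTA-KO clonotype 2 (147 cells) Pdcd1 at 898 CPM, with 504 CPM of Lag3 and 255 CPM of Havcr2, the highest Havcr2 level of all 35.
WT clonotype 1: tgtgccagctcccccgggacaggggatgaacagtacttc
WT clonotype 2: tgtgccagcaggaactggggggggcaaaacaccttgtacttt
VISTA-KO clonotype 1: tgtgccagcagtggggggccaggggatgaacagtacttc
VISTA-KO clonotype 2: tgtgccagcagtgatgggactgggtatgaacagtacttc

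Across these clonotypes the 8 genes did not rank alike. Cd160 had Spearman correlations of -0.0040 to 0.30 with the 6 genes other than Cd101 over the 23 WT clonotypes and of -0.68 to -0.24 over the 12 VISTA-KO clonotypes, and Cd101 of -0.02 to 0.22 and -0.24 to 0.36. The 15 pairs among the other 6 genes ran from 0.75 to 0.94 and from 0.37 to 0.89. Clonotypes of 1 library share its cells, depth and sort, so these values are descriptions.

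By the lower of the 2 libraries' correlations, the genes most like each receptor among 3072 were named. Pdcd1 was most like Cd200r1, Ier5l and Ctla4 (WT 0.80, 0.79 and 0.77). Havcr2 was most like Cox17, Rgs16 and Atp5f1, Lag3 like Hnrnpa1, Cd200r1 and Il2rb, and Tigit like Chst12, Ehd1 and Impa2. Cd244a was most like Tnfrsf9, Ciapin1 and Impa2, and Cd200r1 like Lag3, Il2rb and Ehd1. Cd160 (Ppp3cb, Akna and Adgre5; lower correlations of 0.52, 0.45 and 0.44) and Cd101 (Nr1h2, Atp6v1f and Rab24) had no gene as close.

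Ligands of the receptors were described from a list of 13 genes, of which 6 or 7 reached 20 CPM in each cell kind. Cd274, which encodes PD-L1, was higher in VISTA-KO in all 3 kinds, at 41.3 and 56.1 CPM in CD8 cells (1.36, 1.26 to 1.46), 51.2 and 73.4 CPM in conventional CD4 cells (1.43, 1.30 to 1.59) and 54.7 and 103 CPM in regulatory cells (1.89, 1.73 to 2.07). Cd200, the ligand of CD200R1, was lower in conventional CD4 cells (20.8 and 12.3 CPM). It was also lower in CD8 cells, at 14.7 and 7.57 CPM (0.514, 0.437 to 0.603), but under 20 CPM there. No other ligand with at least 20 CPM was past the fold. Of 5 related receptors, Lair1 was past it in conventional CD4 cells (70.7 and 33.2 CPM), and of 10 signal relays, Ptpn6, which encodes the phosphatase SHP-1, in regulatory cells (176 and 133 CPM).

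Of 19 listed transcription factors, 18 reached 20 CPM in CD8 cells, 5 of them past the fold upward and 1 downward. Conventional CD4 cells had 7 upward and 2 downward of 17, and regulatory cells 7 upward and 3 downward of 16. The backgrounds, upward and downward, were 2.58% and 1.64% in CD8, 3.68% and 5.63% in conventional CD4 and 6.45% and 5.64% in regulatory cells. Nr4a1, an immediate target of T cell receptor signaling, was at 127 and 370 CPM in CD8 cells (2.90), 176 and 770 CPM in conventional CD4 cells (4.38) and 193 and 795 CPM in regulatory cells (4.11). Nr4a3 (ratios of 2.47, 2.49 and 2.89), Irf4 (2.00, 1.77 and 1.51) and Tbx21, which encodes T-bet (1.33, 1.53 and 1.31), were also past the fold in all 3 kinds.

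The others past the fold were fewer and went both ways. Nr4a2 was higher in CD8 (144 and 239 CPM) and regulatory cells (75.2 and 104 CPM). Tox was lower in conventional CD4 (138 and 87.4 CPM) and regulatory cells (180 and 133 CPM), as was Eomes (39.2 and 27.4, and 28.8 and 17.6 CPM). Maf, Tcf7 and Bach2 were higher in conventional CD4 cells (1.29, 1.29 and 1.31), Foxo1 in regulatory cells (1.37) and Ikzf2 in regulatory cells (1.32) but lower in CD8 cells (0.772), and Id2 was lower in regulatory cells (506 and 355 CPM). These gates use single UMIs, so these values too carry the other cells described above.

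The receptors also followed the state of a CD8 cell. With a UMI of Tox, the mean number of receptors was 2.01 in WT and 1.97 in VISTA-KO, against 1.16 and 1.12 without one. With a UMI of Tcf7 it was 0.878 and 0.633, against 1.502 and 1.49. Havcr2 was found in 1.47% and 2.12% of cells with Tcf7 and in 7.66% and 12.1% of those without. Cd160 was found in 17.8% and 13.95% of cells with Tcf7 and 19.3% and 17.6% of those without. Cd101 was found in 6.13% and 4.24% of cells with Tcf7 and in 5.70% and 6.46% of those without.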

How the data were processed

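Single-cell gene expression and T cell receptor libraries were analysed for 1 WT and 1 VISTA-KO pool, 4 samples in all. Per the labels and methods, the authors aligned reads with Cell Ranger to mm10/GRCm38, and the deposited matrices hold raw UMI counts for each gene in each barcode, not normalized. The labels name a 3′ kit and the methods a 5′ kit; the receptor contigs fit the latter. The authors also deposited, per receptor contig, counts of UMIs and reads.

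Cells were kept with at least 600 genes and under 30% mitochondrial UMIs, as in the methods. UMIs were summed per library and cell kind and scaled to CPM, with exact Poisson intervals; log2 ratios add 5 CPM. Shares used cells thinned to 2000 UMIs, with exact Clopper-Pearson intervals (95%); WT and VISTA-KO CD8 cells with fewer UMIs, 290 and 186, were left out. The totals were 72098984 and 59916814 UMIs. Genes with at least 20 CPM in 1 library were named past a log2 ratio of 0.32. A clonotype was the V gene and junction nucleotides of the top alpha and beta chains. Doublets were kept, and left out in an alternative (2 or more beta chains, or the top 5% by UMIs). Named genes were all members, pathway genes past the fold, and per member the 3 genes most alike among those with at least 50 CPM, members included, and the largest clonotypes. Sums and ratios were tested on simulated data. The members, gene lists and comparisons were chosen with earlier results of these data known. Python 3.11.15, numpy 2.4.6, scipy 1.17.1, pandas 2.3.3 and matplotlib 3.10.9 were used.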

Additional observations from a re-analysis of the deposited data

Results flagged for a closer look

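Havcr2 went in opposite directions in CD8 cells and in both CD4 kinds. On the log2 scale its VISTA-KO over WT ratio was higher in CD8 than in conventional CD4 cells by 1.01 and higher in CD8 than in regulatory cells by 0.93. With 1 library per genotype, neither difference was tested. Without the largest CD8 clonotype of each library the CD8 ratio was 1.09, and in conventional CD4 cells without CD8 UMIs and other lineages' markers Havcr2 was at 10.7 and 8.80 CPM.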

How the results depend on the processing

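No paired analysis was possible because each genotype had 1 library. For the same reason no replicate could be left out. The median log2 ratio of the 8 receptors in regulatory cells (-0.40) was -0.54 with each cell weighted equally, -0.48 with a pseudocount of 1 CPM, -0.15 with stricter cell kinds, -0.49 without doublets, -0.48 without dividing cells and -0.23 in cells without CD8 UMIs or other lineages' markers. In conventional CD4 cells (-0.60) it was -0.46 with a pseudocount of 20 CPM, -0.40 with stricter kinds, -0.37 without dividing cells and -0.45 in the cells without those markers. In CD8 cells (0.02) it was -0.12 without the largest clonotypes, 0.12 in clonotypes of 1 cell and -0.26 in those of 2 to 19.

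In CD8 cells 2 receptors, in place of Havcr2 alone, were past the fold with stricter kinds (Havcr2 upward, Cd160 downward), without the largest clonotypes (Tigit and Cd160 downward, Havcr2 not), with each clonotype weighted equally (Havcr2 upward, Tigit downward) and in clonotypes of 1 cell (Havcr2 and Lag3 upward), and 4 were in clonotypes of 2 to 19 cells (Pdcd1, Lag3, Tigit and Cd160 downward, Havcr2 not). In regulatory cells 7, in place of 4, were past it without doublets (Cd200r1 upward, the others downward, Cd101 not). Cd200r1 was past it upward there under 4 of 10 alternatives. The mean number of receptors per CD8 cell, VISTA-KO minus WT (-0.05), was -0.19 without the largest clonotypes, 0.069 in clonotypes of 1 cell and -0.21 in those of 2 to 19. Its excess in clonotypes of 20 or more over those of 1 cell was 0.44 at 1000 UMIs, 1.12 at 4000 UMIs, 1.18 without the largest clonotype and 0.55 without dividing cells in WT (0.70), and 0.86 and 1.85 at the 2 depths in VISTA-KO (1.33). Log2 ratios past the fold turned sign for Cd160 in regulatory cells with stricter kinds (0.13), for Cd244a in conventional CD4 cells without CD8 UMIs or other markers (0.15) and for Havcr2 in CD8 clonotypes of 2 to 19 cells (-0.013). Smaller ones turned too: in CD8 cells Pdcd1 was above 0 under 2 of 13 alternatives (up to 0.24), Lag3 under 5 (-0.35 to 0.41) and Cd160 under 1 (0.023), and Cd244a, Cd101 and Cd200r1 were below 0 under some. In regulatory cells Cd244a was above 0 under 2 of 10 alternatives (up to 0.099) and Cd101 under 6 (-0.14 to 0.14). The causes were not tested. The cells without CD8 UMIs or other markers and the clonotypes by size were chosen after the data were seen. Thinning limits Cd244a, Cd101 and Cd200r1, found in few cells.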
